A study of Mus musculus with 7 samples.

Results

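Adhesion receptor genes of sorted bone marrow stromal cells were examined, namely the integrin subunits, the cadherins and the protocadherins. A gene was included when its symbol in the platform annotation was that of an integrin alpha or beta subunit, or began with Cdh or Pcdh and a number, or a letter and a number. Integrin-binding proteins and the genes Cdh5, Itgb3 and Itga2b were left out. Of 12393 genes on the array 67 were included, with 19 integrin subunits, 18 cadherins and 30 protocadherins, and of a gene's probe sets the one with the greatest 7-array mean was taken. The comparison set osteocalcin-marked cells (Ocn+, green Topaz reporter, 3 arrays) against osterix-marked cells (Osx+, red mCherry reporter, 4 arrays). Osterix marks cells committed to bone formation and osteocalcin marks mature osteoblasts. All arrays came from OsxCre-mCherry;OcnCre-Topaz double transgenic mice 4 to 6 weeks old, given tamoxifen 6 days before sorting, so both groups carried both transgenes and the drug. Each colour is named for a promoter, and whether it marks present or past activity of that promoter was not tested here. The labels do not say which reporter needs the drug, and the double-coloured sorted fraction was not used here. The labels do not say which arrays share an animal or whether animals were pooled. A p-value thus measures array-to-array spread alone, and that may be technical in part.

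Integrins are receptors of an alpha and a beta subunit that tie the cytoskeleton to matrix proteins such as collagen, laminin and fibronectin, or to partner receptors on other cells. Cadherins bind like cadherins on a neighbouring cell in the presence of calcium and are held to actin by catenins. Protocadherins are their relatives, and those encoded in gene clusters give nerve cells a surface identity. In bone, osteoblasts adhere to matrix through beta 1 and alpha v integrins and to each other through Cdh11 and Cdh2.

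Values are log2 signals, and a difference is the Ocn+ mean minus the Osx+ mean in log2 units from a limma fit over all 12393 genes. Signals of different probe sets are not comparable as transcript levels, so each gene is set only against itself in other arrays. As a list, the markers of the labelled lineage gave signal in both groups. The mean of 8 measured osteoblast and osteocyte genes, of 10 listed, was 11.99 to 12.45 in Ocn+ arrays and 10.69 to 12.24 in Osx+ arrays. Runx2 and Bglap, the osteocalcin gene, were listed but not among the genes measured. Of the 8 genes 6 had a difference above 0. Mepe did not overlap, at 10.35 to 11.44 in Ocn+ and 5.52 to 10.17 in Osx+ arrays. Of 15 marker lists of cell types, 3 had a higher mean in every Ocn+ array than in any Osx+ array. The endothelial list (12 of 12 genes above 0) was 10.07 to 10.45 in Ocn+ and 6.34 to 9.69 in Osx+ arrays. The neutrophil list (9 of 9) was 11.42 to 11.64 in Ocn+ and 7.50 to 11.04 in Osx+ arrays, and the osteoclast list (6 of 6) 11.15 to 11.69 in Ocn+ and 8.37 to 10.76 in Osx+ arrays. Macrophage and megakaryocyte lists were lower in every Ocn+ array, and the other lists overlapped. Of these 2 lower lists, 2 of 10 macrophage genes and 1 of 6 megakaryocyte genes stood above 0. The macrophage list means lay close, at up to 10.18 in Ocn+ and from 10.23 in Osx+ arrays. In sorted bulk samples, a larger share of cells of a type and more RNA per cell cannot be told apart. A further split ran across the groups. Xist is the RNA of the silenced X chromosome in female cells. It was at 12.33 to 12.96 in 4 arrays (Ocn+ replicates 2 and 3, Osx+ replicates 2 and 4). In the other 3 (Ocn+ replicate 1, Osx+ replicates 1 and 3) it was at 4.87 to 5.79. Arrays of unlike Xist signal, found in both groups, are not repeats of the same animal.

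None of the 67 adhesion genes passed an adjusted p of 0.05, and the gene furthest apart between the groups was the integrin subunit Itgb7, 3.61-fold brighter in Ocn+ cells. The background over all genes at this threshold was 0%. At an unadjusted p under 0.05 limma gave 4 of the 67 (5.97%), all higher in Ocn+ cells, where 3.48% of all genes were higher and 1.83% lower at that level, 5.31% in all. The groups did not overlap for 3 genes higher in Ocn+ cells (4.48%, against 4.37% of all genes) and for 1 lower (1.49%, against 2.53%), or 5.97% in all, against 6.9%. These shares lie near the background. The differences ran from -0.57 to 1.85 with a median of -0.02, against a median of 0.02 over all genes. Of the adhesion genes 30 stood above 0 and 37 below, against 6531 above and 5862 below over all genes. Only Itgb7 differed by more than 1 log2 unit, that is 1.49% of the adhesion genes and 3.52% of all genes. The 95% interval of the difference lay wholly between -1 and 1 for 35 of the 67 genes (52.2%, against 59.9% of all genes) and reached further for the other 32.

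**Figure D1:**
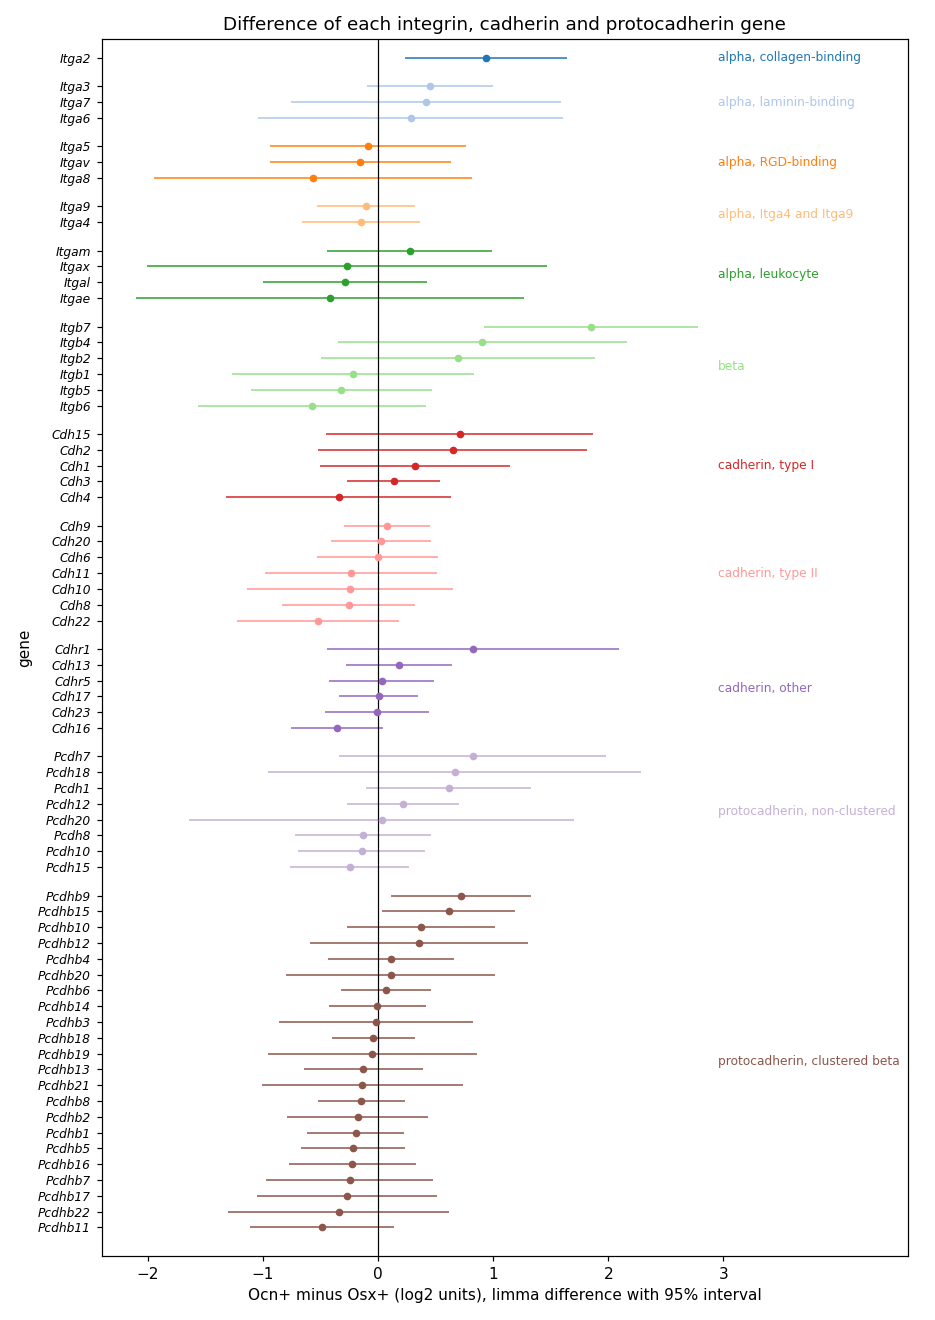
Difference between Ocn+ and Osx+ arrays for each of the 67 adhesion genes, in log2 units (horizontal axis), with the 95% interval from limma as the bar; genes run down the page by role. Itgb7 stands at 1.85 and no other gene is past 1 in either direction.

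Itgb7 encodes the beta 7 subunit, which pairs with alpha 4 or alpha E on lymphocytes, mast cell progenitors and other blood cells and guides them to the gut. Its log2 signal was 10.52, 9.93 and 10.12 in Ocn+ replicates 1 to 3, against 9.06, 8.05, 8.78 and 7.48 in Osx+ replicates 1 to 4. Every Ocn+ array lay above every Osx+ array, and the lowest Ocn+ array was 0.87 above the highest Osx+ array. Ocn+ arrays averaged 10.19 ± 0.30 (SD, n = 3), against 8.34 ± 0.72 for Osx+ arrays (SD, n = 4). The difference of 1.85 (SE 0.40, 95% interval 0.92 to 2.78) had an unadjusted p of 0.00214 and an adjusted p of 0.689 in limma. Among the high-Xist arrays it was 2.26, and 1.61 among the low-Xist arrays, where a single Ocn+ array stands against 2, and 2.00 (SE 0.22, limma adjusted p = 0.0986) in the model that holds the Xist class. With arrays weighted by their fit Itgb7 passed, at a difference of 2.15 and a limma adjusted p of 0.0281. It passed in no other setting, the adjusted p over all settings running from 0.0281 to 1.00. The weighted fit called 0.783% of all genes and 1 of the 67. Its weight was 6.02 on Ocn+ replicate 2, against 0.46 and 1.97 on Ocn+ replicates 1 and 3. Osx+ replicates 1 to 4 had weights of 0.24, 1.03, 0.35 and 2.16. The weighted fit thus leaned on Ocn+ replicate 2 and gave the low-Xist arrays little weight. It is not separate from the fit among the high-Xist arrays.

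At the probe sets used, the alpha partners of beta 7 did not stand apart in the same arrays. Itga4, the alpha 4 subunit, which also pairs with beta 1 to bind Vcam1, was 5.35, 5.46 and 5.73 in Ocn+ arrays, against 5.58, 6.02, 5.28 and 5.78 in Osx+ arrays. The groups overlapped, with a difference of -0.15 (SE 0.22, 95% interval -0.66 to 0.36). Its mean signal of 5.60 was under the 25th percentile of gene means (6.03), which limits what this shows. Its other probe sets, dimmer still, gave 0.07 and -0.14, and at the last of them the groups did not overlap. Itgae, the alpha E subunit of lymphocytes within epithelia, was 5.99, 6.18 and 5.93 in Ocn+ arrays, against 8.52, 5.40, 5.65 and 6.22 in Osx+ arrays. Only Osx+ replicate 1 stood well above the rest, and the difference was -0.42 (SE 0.72). Signals of blood cell lists beside Itgb7 differed by list. The endothelial, neutrophil and osteoclast lists were higher in every Ocn+ array, as given above. Signals of the mast cell list (6 genes) were 4.82 to 6.18 in Ocn+ and 4.54 to 7.15 in Osx+ arrays, and its members differed among themselves. Kit, the receptor for stem cell factor on mast cells and blood progenitors, was 6.86, 7.21 and 7.45 in Ocn+ arrays, against 5.15, 5.70, 6.03 and 5.75 in Osx+ arrays. It did not overlap between the groups (limma difference 1.51, SE 0.25, unadjusted p = 0.00052, adjusted p = 0.556). The IgE receptor genes Fcer1a and Ms4a2 differed by 0.01 and -0.01, and the other 3 genes overlapped. B lymphoid genes (6) were at 7.0 to 7.81 in Ocn+ and 6.76 to 8.23 in Osx+ arrays, and T lymphoid genes (5) at 6.30 to 6.86 in Ocn+ and 6.03 to 6.61 in Osx+ arrays. Of the T lymphoid genes only Cd3g did not overlap, higher in Ocn+ cells by 0.52 (limma unadjusted p = 0.0192, adjusted p = 0.888). The 4 pan-leukocyte genes averaged 10.76 to 11.21 in Ocn+ and 10.20 to 11.78 in Osx+ arrays. Among them Ptprc was lower in every Ocn+ array, with a difference of -1.44 (SE 0.52, limma unadjusted p = 0.0275, adjusted p = 0.898). The other 3 pan-leukocyte genes were above 0 and overlapped. The part of these cell types in the Itgb7 difference was not tested.

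**Figure D2:**
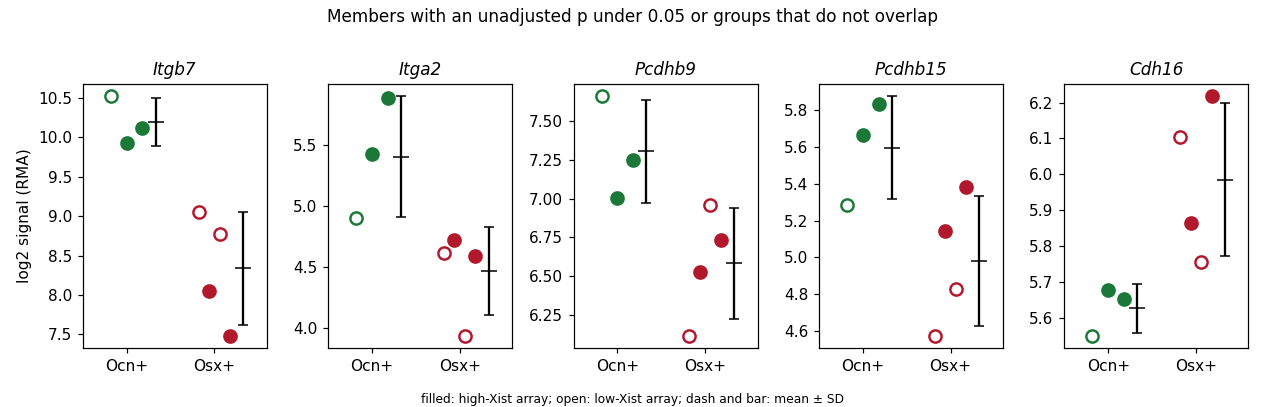
Log2 signal of the 5 adhesion genes with an unadjusted p under 0.05 or no overlap between groups, Ocn+ arrays (3) left and Osx+ arrays (4) right, filled for high-Xist and open for low-Xist arrays, with mean and SD beside them. Itgb7 has the widest gap, Pcdhb15 overlaps, and Cdh16 is the one gene that is lower in Ocn+ cells.

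The stretch around the transcription start of Itgb7 is shown because it was the gene furthest apart, beside that of Itga2, the integrin subunit next to it in difference. Both come from RefSeq on GRCm38.p6, minus strand, as a window of 300 bases around the start that the table lists, at chr15:102231886-102232185 for Itgb7 and chr13:114932051-114932350 for Itga2. Capitals mark matches to any of 4 motifs searched on both strands, AGATAA (bound by GATA factors), ACTTCCT (ETS factors), TGTGGT (RUNX factors) and CACCTG (an E-box).
Itgb7: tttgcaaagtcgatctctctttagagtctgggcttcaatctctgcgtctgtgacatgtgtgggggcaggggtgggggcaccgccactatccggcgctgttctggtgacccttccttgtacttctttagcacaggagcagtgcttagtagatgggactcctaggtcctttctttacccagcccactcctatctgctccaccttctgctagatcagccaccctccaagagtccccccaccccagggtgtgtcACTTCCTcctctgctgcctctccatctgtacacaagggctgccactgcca
Itga2: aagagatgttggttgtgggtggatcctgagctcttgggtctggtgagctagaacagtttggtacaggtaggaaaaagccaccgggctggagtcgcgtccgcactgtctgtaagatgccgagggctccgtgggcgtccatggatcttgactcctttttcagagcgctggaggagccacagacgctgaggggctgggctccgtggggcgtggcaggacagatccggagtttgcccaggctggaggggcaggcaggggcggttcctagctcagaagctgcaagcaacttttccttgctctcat
Itgb7 held 1 match, to the ETS motif, and Itga2 held 0. Of 32851 promoters of this length 9.35% held the ETS motif, 11.2% the GATA motif, 16.8% the RUNX motif and 20.2% the E-box, and no 2 matches overlapped in the stretches shown.

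After Itgb7, the largest difference of the 67 genes was that of Itga2. Itga2, the collagen-binding alpha 2 subunit known from platelets and epithelia, was 4.90, 5.43 and 5.88 in Ocn+ arrays, against 4.62, 4.72, 3.93 and 4.59 in Osx+ arrays. The groups did not overlap, by a margin set by Ocn+ replicate 1 and Osx+ replicate 2. Its difference was 0.94 (SE 0.30, unadjusted p = 0.0155, adjusted p = 0.869 in limma), and 1.00 among high-Xist and 0.62 among low-Xist arrays. All these signals are under the 25th percentile of gene means (6.03), and with no detection calls used here it is not known whether they lie above background. The megakaryocyte and platelet list (6 measured genes), a type known for Itga2, was 6.42 to 6.99 in Ocn+ and 7.02 to 7.66 in Osx+ arrays. Its members Ppbp (-2.29) and Pf4 (-1.11) stood below 0, and Gp9, Gp1bb, F2rl2 and Treml1 ran from -0.12 to 0.14. The part of platelets in the Itga2 difference was not tested.

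The laminin-binding alpha subunits stood above 0 in 3 of 3 cases and none passed. Itga6, which pairs with beta 1 or beta 4, was 9.69, 10.89 and 11.08 in Ocn+ arrays, against 9.31, 11.52, 10.18 and 10.08 in Osx+ arrays. The groups overlapped fully, with a difference of 0.28 (SE 0.56). The other Itga6 probe set, a dimmer one, gave 0.94, and there too the groups overlapped. Itga3 differed by 0.45 (SE 0.23) and Itga7, a laminin receptor of muscle, by 0.42 (SE 0.50). The 3 probe sets of Itga3 gave differences of 0.13, 0.45 and 1.33, and at the last of them, a dimmer one (6.64 ± 0.44 in Ocn+, SD, n = 3, and 5.31 ± 0.65 in Osx+, SD, n = 4), the groups did not overlap. Itgb4, the beta partner of alpha 6 in epithelial anchoring junctions, differed by 0.91 (SE 0.53), and the groups overlapped.

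The integrins of bone matrix showed no separation of the sorted groups. Itgb1, the common beta subunit of collagen, laminin and fibronectin receptors, was 11.34, 12.20 and 12.65 in Ocn+ arrays, against 11.65, 12.80, 11.74 and 12.91 in Osx+ arrays. Its difference was -0.22 (SE 0.45, 95% interval -1.27 to 0.83), and the arrays that were low were those of low Xist signal in both groups. All 6 probe sets of Itgb1 gave a difference below 0, between -1.25 and -0.01. Itgb5, which binds vitronectin together with alpha v, was 12.95, 12.23 and 12.36 in Ocn+ arrays, against 13.21, 12.25, 13.36 and 12.51 in Osx+ arrays. Its difference was -0.32 (SE 0.33), with the low-Xist arrays of both groups the high ones. Itgav, the alpha v subunit, was 11.73, 12.63 and 12.69 in Ocn+ arrays, against 12.01, 12.94, 12.24 and 12.80 in Osx+ arrays. Its difference was -0.15 (SE 0.33), and its other probe sets gave 0.07 and 0.56. Itga5, the fibronectin receptor subunit, was 13.12, 12.29 and 11.99 in Ocn+ arrays, against 12.97, 12.34, 12.94 and 11.96 in Osx+ arrays, a difference of -0.09 (SE 0.36). In both genes the ranges of the groups overlap over most of their width. Itga8, a partner of beta 1 for the ligand nephronectin, differed by -0.57 (SE 0.59), with Osx+ replicate 3 at 6.67 and the other Osx+ arrays at 4.21 to 4.56. Itgb6, an epithelial partner of alpha v, differed by -0.57 (SE 0.42), and its other probe set gave 0.05. Itga9, which binds tenascin with beta 1, was 9.65, 9.59 and 9.29 in Ocn+ arrays, against 9.54, 9.68, 9.84 and 9.39 in Osx+ arrays. Those values lay within 0.55 of each other, and the difference was -0.10 (SE 0.18, 95% interval -0.53 to 0.32).

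**Figure D3:**
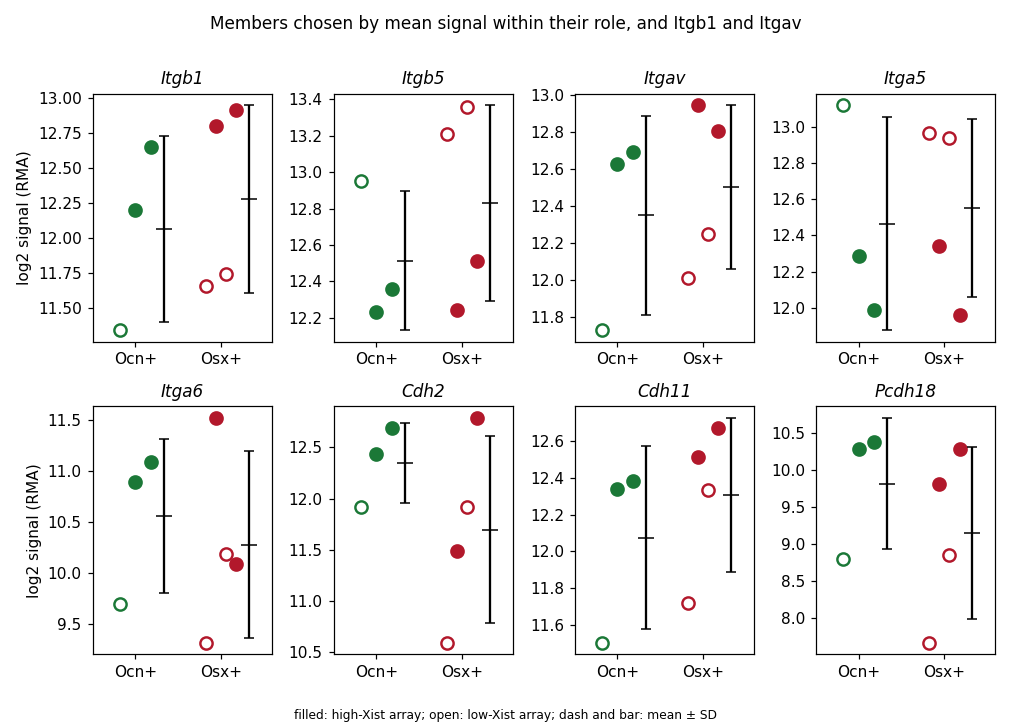
Log2 signal of 8 adhesion genes by array, Ocn+ (3 arrays) left and Osx+ (4 arrays) right, filled for high-Xist and open for low-Xist arrays, with mean and SD. In Itgb1 and Itgav the open points lie below the filled ones in both groups, and in Itgb5 and Itga5 above them.

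The groups overlapped for each of the other leukocyte integrins, and whether these differ from Itgb7 was not tested. Itgb2, the beta 2 subunit common to leukocyte integrins, was 10.05, 9.66 and 9.71 in Ocn+ arrays, against 9.95, 9.85, 8.74 and 7.91 in Osx+ arrays. Osx+ replicates 1 and 2 lay within the Ocn+ range and replicates 3 and 4 below it, and the difference was 0.69 (SE 0.51, 95% interval -0.49 to 1.88). With arrays weighted by their fit it was 1.05 (limma adjusted p = 0.249). Itgax, the alpha X subunit of dendritic cells and macrophages, was 7.42, 6.23 and 6.77 in Ocn+ arrays, against 8.55, 7.94, 6.17 and 5.65 in Osx+ arrays, a difference of -0.27 (SE 0.74). The Osx+ arrays were both the highest and the lowest. Itgam, of neutrophils and macrophages, differed by 0.28 (SE 0.30) and Itgal, of lymphocytes, by -0.29 (SE 0.30). The neutrophil list was higher in Ocn+ arrays and the macrophage list lower (8.89 to 10.18 in Ocn+ and 10.23 to 11.54 in Osx+ arrays). Of the 10 macrophage genes, Csf1r (0.28) and Cd68 (0.26) stood above 0. The part of these lists in the integrin values was not tested. Among integrins that were not included, Itgb3, the partner of alpha v in osteoclasts, differed by 0.40 (SE 0.23) and Itga2b, of platelets, by 0.41 (SE 0.41). The excluded cadherin Cdh5, of endothelial junctions, differed by 3.44 (SE 0.54).

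The cadherins known from bone-forming cells overlapped between the groups. Cdh2, N-cadherin of mesenchymal cells, was 11.92, 12.43 and 12.69 in Ocn+ arrays, against 10.59, 11.49, 11.92 and 12.79 in Osx+ arrays. Osx+ replicate 4 exceeded every Ocn+ array, and the difference was 0.65 (SE 0.50, 95% interval -0.52 to 1.82). The other Cdh2 probe set gave 0.58. Cdh11, the osteoblast cadherin, was 11.50, 12.34 and 12.38 in Ocn+ arrays, against 11.72, 12.51, 12.33 and 12.67 in Osx+ arrays. Its difference was -0.23 (SE 0.32, 95% interval -0.98 to 0.51), and the lowest array of each group was of low Xist signal. Cdh13, a cadherin anchored to the membrane by a lipid and known to bind adiponectin, was 9.94, 9.67 and 10.09 in Ocn+ arrays, against 9.97, 9.39, 9.76 and 9.74 in Osx+ arrays. Its difference was 0.18 (SE 0.20), and its other probe sets ran from -0.15 to 0.48.

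Of the other cadherins only Cdh16 separated the groups. Cdh16, known from kidney tubules, was 5.55, 5.68 and 5.65 in Ocn+ arrays, against 6.10, 5.86, 5.76 and 6.22 in Osx+ arrays, with a mean under the 25th percentile of gene means. The gap between the groups was 0.08, and the difference of -0.36 (SE 0.17) had a limma unadjusted p of 0.0712 and an adjusted p of 0.999. Cdh15, of muscle cells, differed by 0.71 (SE 0.49), Cdh1, of epithelia, by 0.32 (SE 0.35), Cdh3 by 0.14 (SE 0.17) and Cdh4 by -0.34 (SE 0.42). These are classical cadherins of the first type, of which 4 of 5 were above 0. Of 7 cadherins of the second type, many of them known from brain, 2 were above 0. Besides Cdh11 these were Cdh22 (-0.52), Cdh8 (-0.25), Cdh10 (-0.24), Cdh6 (-0.003), Cdh20 (0.03) and Cdh9 (0.08). The inner ear cadherin Cdh23 differed by -0.01, the gut cadherin Cdh17 by 0.01 and the microvillus protein Cdhr5 by 0.03. Cdhr1, a photoreceptor protein, differed by 0.82 (SE 0.54) on the strength of Ocn+ replicate 1 (6.65), the other 6 arrays lying at 4.15 to 4.63. For 11 of the 18 cadherins the mean signal was under the 25th percentile of all genes.

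Non-clustered protocadherins, which are single genes with roles mainly known from brain, stood above 0 in 5 of 8 cases. Pcdh18 was 8.79, 10.28 and 10.37 in Ocn+ arrays, against 7.66, 9.80, 8.85 and 10.28 in Osx+ arrays, a difference of 0.67 (SE 0.69). Within each group the high-Xist arrays were the high ones at this probe set. At another Pcdh18 probe set the high-Xist Osx+ replicate 2 was the lowest array (7.61), and the low-Xist Osx+ replicate 3 was at 9.15. Pcdh7 differed by 0.82 (SE 0.49), Pcdh1 by 0.61 (SE 0.30) and Pcdh12, a protocadherin of endothelial cells, by 0.22 (SE 0.21). Signals of the endothelial list were higher in every Ocn+ array, and their part in the Pcdh12 value was not tested. Pcdh20 differed by 0.03, Pcdh8 by -0.13, Pcdh10 by -0.14 and Pcdh15 by -0.25. The other probe set of Pcdh20 gave -0.41 and that of Pcdh10 gave 0.68, each opposite in sign to the value used.

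The clustered beta protocadherins lie side by side on chromosome 18 (22 genes measured), and their near-identical sequences mean that probe sets may share signal between them. Pcdhb9 was 7.66, 7.005 and 7.25 in Ocn+ arrays, against 6.11, 6.53, 6.96 and 6.74 in Osx+ arrays. The groups did not overlap, by 0.05, and the difference was 0.72 (SE 0.26, unadjusted p = 0.0259, adjusted p = 0.888 in limma). Among high-Xist arrays this came to 0.50 and among low-Xist arrays to 1.13. Pcdhb15 was 5.29, 5.67 and 5.84 in Ocn+ arrays, against 4.57, 5.14, 4.83 and 5.38 in Osx+ arrays. Osx+ replicate 4 lay above Ocn+ replicate 1, and the difference was 0.62 (SE 0.25, unadjusted p = 0.0403, adjusted p = 0.935 in limma). Pcdhb20, the brightest of the cluster, was 7.60, 8.92 and 8.84 in Ocn+ arrays, against 8.24, 8.24, 7.97 and 8.94 in Osx+ arrays, a difference of 0.11 (SE 0.38). Across the cluster 7 genes stood above 0 and 15 below, with a median of -0.09, and 20 of the 22 differed by less than 0.5 in either direction. Above 0 were also Pcdhb10 (0.38), Pcdhb12 (0.35), Pcdhb4 (0.11) and Pcdhb6 (0.07). Between -0.25 and 0 were Pcdhb14, Pcdhb3, Pcdhb18, Pcdhb19, Pcdhb13, Pcdhb21, Pcdhb8, Pcdhb2, Pcdhb1, Pcdhb5, Pcdhb16 and Pcdhb7. Lower still were Pcdhb17 (-0.27), Pcdhb22 (-0.34) and Pcdhb11 (-0.49). For 14 of the 22 the mean signal was under the 25th percentile of all genes.

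Several adhesion genes separated arrays by Xist signal, across both sorted groups. High-Xist and low-Xist arrays did not overlap for 8 genes higher in the high-Xist arrays (11.9%, against 12.9% of all genes) and 4 lower (5.97%, against 21.4%), 17.9% in all, against 34.3%. Higher in the 4 high-Xist arrays were Pcdh18 (10.18 against 8.43 in low-Xist arrays), Pcdh20 (6.98 against 5.42), Itgb1 (12.64 against 11.58) and Pcdhb12 (6.52 against 5.59), and also Itgav, Cdh10, Pcdhb3 and Cdh11. Lower there were Itga5 (12.14 in high-Xist against 13.01 in low-Xist arrays), Itgb5 (12.34 against 13.17), Itgal and Pcdhb2. These classes were defined from the arrays themselves, so they are given as values without a test. The splits are those of the probe set used for each gene. At some other probe sets of Pcdh18, Pcdh20, Itgb1, Itgav and Itga5 the classes overlapped. The mean difference between Xist classes exceeded that between sorted groups in 42 of the 67 genes (62.7%, against 69.9% of all genes). With the Xist class in the model, 9 of the 67 (13.4%) had a limma unadjusted p under 0.05, against 16% of all genes, and 0 passed the adjusted p. Beyond Itgb7, Itga2, Pcdhb9, Pcdhb15 and Cdh16, the 9 comprised Pcdh1 (0.73), Itga3 (0.53), Itgb4 (1.11) and Itgb1 (-0.40).

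**Figure D4:**
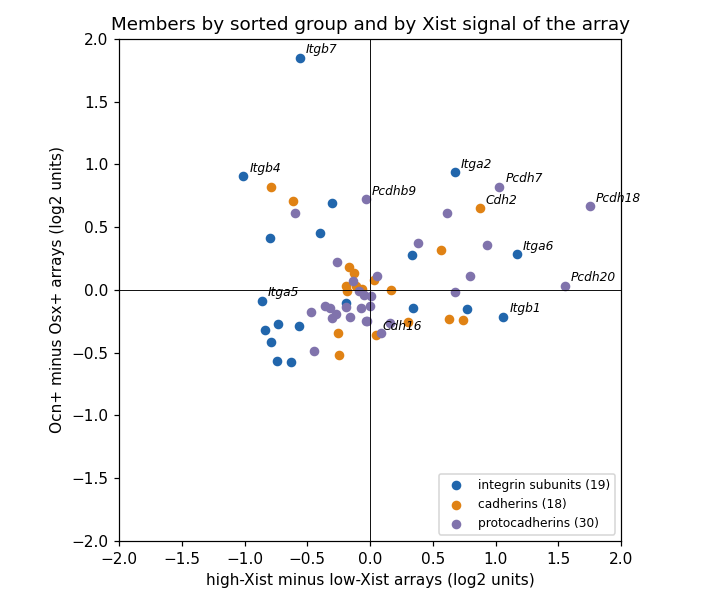
Each of the 67 adhesion genes by its difference between high-Xist and low-Xist arrays (horizontal, log2 units) and between Ocn+ and Osx+ arrays (vertical, log2 units), coloured by family. Itgb7 lies highest at 1.85, while Pcdh18 lies furthest right.

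Of the proteins that adhesion receptors bind or act through, in 4 lists, 0 genes passed the adjusted p in limma. Among 18 measured integrin adaptors of 22 listed, the unadjusted p was under 0.05 for 1 gene (5.56%, against 5.31% of all genes), higher in Ocn+ cells, the kinase Src (0.95, SE 0.35). The groups did not overlap for 2 adaptors (11.1%, against 6.9% of all genes). Ptk2b, a kinase related to focal adhesion kinase, was 9.55 ± 0.11 in Ocn+ arrays (SD, n = 3), against 8.78 ± 0.82 in Osx+ arrays (SD, n = 4), higher in Ocn+ cells by a narrow margin. Vcl, vinculin of focal adhesions, was 13.00 ± 0.24 in Ocn+ arrays (SD, n = 3), against 13.32 ± 0.13 in Osx+ arrays (SD, n = 4), and was the lower one. Among 12 of 14 catenins and plaque proteins 1 was higher at that level (8.33%), and the groups did not overlap for the same gene. This was Jup, plakoglobin, at 10.55 ± 0.32 in Ocn+ arrays (SD, n = 3), against 9.80 ± 0.20 in Osx+ arrays (SD, n = 4), and differed by 0.75 (SE 0.21, limma adjusted p = 0.731). The beta-catenin gene Ctnnb1 differed by -0.05 (SE 0.19). Of 11 other members of the cadherin superfamily, of 18 listed, 0 were at that level, and Clstn1, a calsyntenin, differed by 0.21 (SE 0.17).

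Among 30 of 31 listed ligands of integrins 3 were higher and 1 lower at an unadjusted p under 0.05 in limma, or 13.3%, against 5.31% of all genes. The groups did not overlap for 2 higher (F11r and Jam2) and 2 lower (Postn and Tnc), also 13.3%, against 6.9%. Icam2 (2.40, SE 0.91), a beta 2 integrin ligand of endothelium and blood cells, F11r (1.81, SE 0.53) and Jam3 (0.47, SE 0.19), junction molecules of endothelium, were the higher ones. Jam2, also of endothelial junctions, was 10.85 ± 0.05 in Ocn+ arrays (SD, n = 3), against 9.88 ± 0.93 in Osx+ arrays (SD, n = 4). The endothelial list was higher in every Ocn+ array, and its part in these values was not tested. The lower one was Postn, periostin, a matrix ligand of alpha v integrins, at 12.77 ± 0.51 in Ocn+ arrays (SD, n = 3), against 13.81 ± 0.27 in Osx+ arrays (SD, n = 4). Tnc, tenascin C, was 13.78 ± 0.05 in Ocn+ arrays (SD, n = 3), against 14.10 ± 0.05 in Osx+ arrays (SD, n = 4), a difference of -0.31 (SE 0.13). Ligands of the Itgb7 dimers did not separate the groups, with Vcam1 at -0.37 (SE 0.26) and Madcam1 at 0.27 (SE 0.36). Col1a2, of the collagen that alpha 2 binds, differed by 0.02 (SE 0.13). Its signals of 14.98 to 15.11 lay close to the array maxima of 15.27 to 15.38, so a difference may be understated.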

How the data were processed

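Gene expression was measured on 7 Affymetrix-type arrays of amplified cDNA (NuGEN Ovation V2, per the labels' protocols), an amplification that favours 3' ends. The authors deposited 1 log2 value per probe set, made with RMA, per the submitters' processing notes, a method of background correction, quantile normalization and probe summary, so a change of total RNA cannot be read. Array medians were 8.25 to 8.35, and array number limits the precision. The genome build is not given in the sources used here.

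Of 22690 probe sets 64 were controls, 20380 had 1 symbol, 691 several and 1555 none listed. Only those with 1 symbol were used, which left out 6 probe sets with several clustered protocadherin symbols. Itgb2l and Itgbl1, which are not named as subunits by the rule, were not counted. The adhesion genes had 97 probe sets, and 18 of 67 genes had several. The differences ran both ways in 7 of these (Cdh4, Cdh13, Itga4, Itgav, Itgb6, Pcdh10 and Pcdh20). Ocn+ minus Osx+ was fitted in limma 3.58.1 under R 4.3.3 (lmFit, eBayes, 2-sided, Benjamini-Hochberg over all genes, threshold 0.05). The fit was tested on simulated data. Every adhesion gene is named. Values in every array are given for genes with an unadjusted p under 0.05 or groups that do not overlap and for the gene of highest mean per role, and for Itga4, Itgae, Itgb1, Itgb2 and Itgav, added after their values were seen. Genes and lists were chosen with earlier results of these data known. Marker lists and 4 partner lists came from general knowledge.

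Alternatives were a block for the replicate number, the omission of each array, filters on dim genes, quantile normalization, median centring, other probe set rules, array weights, a trended robust prior, a threshold of 0.1, and the Xist class (limit 8) as a term or within classes.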

Additional observations from a re-analysis of the deposited data

Results flagged for a closer look

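In the Osx+ group 4 of the 67 adhesion genes had an array far from the other 3, by Dixon's test at the 95% level, which chance flags in about 1 group of 20. Itga8 was 6.67 in Osx+ replicate 3, with the other Osx+ arrays at 4.21 to 4.56. Itga2 was 3.93 in Osx+ replicate 3, with the others at 4.59 to 4.72. Pcdhb16 was 5.33 in Osx+ replicate 1, with the others at 4.51 to 4.63. Pcdhb17 was 7.64 in Osx+ replicate 2, with the others at 8.26 to 8.37.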

How the results depend on the processing

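Of the 67 adhesion genes 0 passed in the fit as reported and under every alternative run except array weights, where 1 (Itgb7) did. Over all genes the count was 0, against 97 with array weights, 19 within the high-Xist arrays and 0 to 3 when an array was left out, the 3 arising without Osx+ replicate 2 or without Osx+ replicate 3. The count of adhesion genes whose groups did not overlap was 4, and 2 with genes under the 25th percentile of signal left out, 1 with those under the median left out (32 and 13 adhesion genes remained) and 5 to 8 with an array left out, where fewer arrays must separate. It reached 8 without Ocn+ replicate 3, and 7 when Osx+ replicate 2 or Osx+ replicate 3 was omitted. The median difference ran from -0.09 within the low-Xist arrays to 0.18 among the brighter part of the genes (those above the median of gene means), against -0.02 in the fit as reported. Itgb7 differed by 1.56 to 2.26 over the 20 settings. Itga2, Pcdhb9, Pcdhb15 and Cdh16 kept their direction in each setting that tested them. For Itgb7, Itga2, Pcdhb9 and Cdh16 this was largely fixed beforehand. Groups that do not overlap keep their sign when an array is left out, when arrays are weighted or blocked, and within an Xist class. The dim-gene filters and the robust prior leave a difference unchanged, as do probe set rules for these genes. The direction of other genes turned in up to 15 of the 67, within the high-Xist arrays. Counts above and below 0 by family thus describe the fit as reported only. With the replicate number as a block Itgb7 differed by 1.56 (limma adjusted p = 0.430), 0 of the 67 passed and 6 had an unadjusted p under 0.05 (8.96%, against 6.68% of all genes in that fit). These were Itgb7, Itga2 and Pcdhb15, which also had one without the block, and Pcdh7 (1.11), Cdh2 (1.01) and Pcdh18 (1.04), which did not. Osx+ replicate 4 has no partner and adds nothing to that fit. Deviations of same-numbered arrays from their group means had correlations of 0.63 (replicate 1), 0.45 (replicate 2) and -0.30 (replicate 3). Differently numbered arrays of the same Xist class had 0.41 to 0.57. Arrays of unlike Xist class, whatever their numbers, had -0.68 to -0.30. These correlations went with Xist class and do not show pairing. The labels name no shared animal, so the numbers were not taken as pairs. No detection calls were used here, and 35 of the 67 genes had a mean signal under the 25th percentile of all genes, which limits what their differences show.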
